A study of Mus musculus with 24 samples.

Results

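The genes F3, Procr, Selp and F2r, 4 genes of blood coagulation and platelet adhesion, were followed in mouse CD4+ T cells treated with a BET inhibitor. They encode tissue factor, the endothelial protein C receptor, P-selectin and the thrombin receptor PAR1. They are 4 of the 18193 genes measured and are covered by 7 of the 45101 probe sets of an Affymetrix mouse array: 1 each for F3 and Procr, 3 for Selp and 2 for F2r. They were chosen by their measured response to I-BET-762 on these arrays: F3 and Procr read low and Selp read high in cells grown with the inhibitor. All probe sets annotated to 1 of these symbols alone were taken. Their values in I-BET-762 against Control-768 are therefore a description, given without a test. Activated against resting cells, and Control-768 against the solvent DMSO, were not used to choose them and were tested.

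RNA was measured in CD4+ T cells of C57BL/6 mice that carry the transgenic 2D2 T cell receptor. All cells were stimulated with plate-bound antibodies to CD3 and CD28 under Th1 conditions for 48 h and expanded for 2 more days, with I-BET-762 at 0.25 or 0.5 µM, with Control-768 or with DMSO. RNA was taken at that point (resting cells) or after 4 h of renewed stimulation with the same antibodies (activated cells). The 4 activated and 4 resting groups held 3 arrays each, 24 in all, which the series text calls biological replicates. I-BET-762 is an inhibitor of BET proteins, readers of histone acetylation that help to start transcription, and Control-768 is the compound the cultures with it were set against. The concentration of Control-768, whether compounds were present during the renewed stimulation, and how many mice gave each culture are not given in the sources used here. All cells shared 1 transgenic receptor and the Th1 condition, so no untransgenic or other helper T cell is compared here.

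Tissue factor is the membrane protein that binds factor VII and starts coagulation, a cascade that ends in thrombin. Thrombin cleaves and so activates PAR1, while the protein C receptor presents protein C for activation by thrombin bound to thrombomodulin, which slows the cascade down. P-selectin is an adhesion receptor best known from the storage granules of platelets and endothelial cells. Once at the cell surface, it binds the glycoprotein PSGL-1 on leukocytes. PAR1 has also been described on human effector T cells, and Procr in mouse Th17 cells.

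The promoters of the 4 genes are shown because the members differed with a drug that acts at acetylated promoters and enhancers. In addition, all 4 windows hold a match to a loosely written AP-1 pattern. The sequences are RefSeq's, on build GRCm38.p6, and span 250 bases before to 50 after the annotated start. F3 lies on the plus strand at chr3:121723287-121723586, Procr on the plus strand at chr2:155750967-155751266, Selp on the plus strand at chr1:164115014-164115313 and F2r on the minus strand at chr13:95618417-95618716. Capitals mark matches to TGANTCA, an AP-1 pattern that leaves its middle base open and reads the same on both strands. In F3 they also mark a match to TATAAA on the opposite strand.
F3: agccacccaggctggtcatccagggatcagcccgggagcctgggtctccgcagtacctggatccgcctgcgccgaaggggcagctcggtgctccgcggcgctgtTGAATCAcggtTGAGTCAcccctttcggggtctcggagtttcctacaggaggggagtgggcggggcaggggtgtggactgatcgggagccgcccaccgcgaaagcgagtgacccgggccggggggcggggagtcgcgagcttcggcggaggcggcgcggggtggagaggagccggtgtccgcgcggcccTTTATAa
Procr: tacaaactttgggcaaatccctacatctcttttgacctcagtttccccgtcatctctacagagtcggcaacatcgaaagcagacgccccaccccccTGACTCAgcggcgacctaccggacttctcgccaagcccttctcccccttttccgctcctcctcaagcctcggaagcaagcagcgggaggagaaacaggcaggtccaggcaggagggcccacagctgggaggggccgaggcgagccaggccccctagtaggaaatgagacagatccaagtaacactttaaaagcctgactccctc
Selp: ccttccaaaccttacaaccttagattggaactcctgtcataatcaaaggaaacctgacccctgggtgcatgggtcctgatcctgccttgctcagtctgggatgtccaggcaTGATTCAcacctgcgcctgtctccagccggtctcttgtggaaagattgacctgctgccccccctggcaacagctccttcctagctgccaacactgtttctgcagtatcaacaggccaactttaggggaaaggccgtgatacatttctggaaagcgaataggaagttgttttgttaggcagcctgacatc
F2r: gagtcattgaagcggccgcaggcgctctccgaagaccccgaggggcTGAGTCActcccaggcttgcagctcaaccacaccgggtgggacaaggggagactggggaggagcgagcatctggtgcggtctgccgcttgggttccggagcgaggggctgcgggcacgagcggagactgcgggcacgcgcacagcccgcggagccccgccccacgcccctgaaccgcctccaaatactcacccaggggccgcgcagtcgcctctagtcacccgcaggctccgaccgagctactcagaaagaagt

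AP-1 is the family of Fos and Jun transcription factors that T cell receptor signals induce. The F3 window held the motif at -146 to -140 (TGAATCA) and again at -135 to -129 (TGAGTCA), counted from the start base as 0, and the other 3 windows held it once. In Procr it stood at -154 to -148 (TGACTCA), in Selp at -139 to -133 (TGATTCA) and in F2r at -204 to -198 (TGAGTCA). Matches with C or G at the open base stood in F3, Procr and F2r only, as the Selp match has T there. Of all 32817 promoter windows of this length, 7.81% held the open pattern. None of the 4 windows held the E-box CACGTG (7.15% of all windows), the EGR motif GCGNGGGCG (5.56%) or the NF-kB pattern GGGRNNYYCC (8.46%), searched on both strands. Here N is any base, R is A or G and Y is C or T. Sites that depart from these letters were not searched for, so the absence holds for the written patterns only. The TATA letters were found only in F3, at 43 to 48 after the start, and 13.6% of all windows held them. The F3 and F2r windows contained 70.3% and 68.7% G and C, against 58.3% in Procr, 51.7% in Selp and a median of 52.7% over all windows. These matches are letters in a window, and binding was not measured in this study.

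Array medians lay between 37.4 and 44.4, and 28.8% to 30.8% of the probe sets read under 16. Values were taken as log2(intensity + 16), so that log2 changes of dim genes are understated. The 8 arrays numbered 3 stood further from their group means (SD of the deviations 0.23 to 0.34 log2) than those numbered 1 (0.17 to 0.21) or 2 (0.18 to 0.24). The markers of T cells were bright as a sum: the summed intensity of 9 T cell markers lay between 35999 and 48144 on all arrays. Among them, group means were 6077 to 8455 for Cd3d, 2077 to 3197 for Cd3e and 4614 to 7215 for Cd3g. Cd4 was the dimmest, at 478 to 953, and was highest in resting cells with DMSO. Of the markers of other cells, 0 of 2 for CD8 T cells, 1 of 4 for NK cells (Ncr1), 6 of 12 for platelets (Pf4, Ppbp, Gp6, Treml1, Tubb1 and Clec1b), 10 of 12 for endothelium, 8 of 9 for monocytes and macrophages, 5 of 6 for dendritic cells and 4 of 4 for B cells stayed under 64 on all 24 arrays. Cd79a and Pax5 of the B cell list stayed under 16. The other markers were not dim throughout: group means were 445 to 669 for Cd8b1, 40.5 to 284 for Eomes, 24.0 to 155 for Klrk1, 53.1 to 852 for Itgb3 of the platelet list and 382 to 568 for Egfl7 of the endothelial list. The T cell sum was higher with 0.5 µM I-BET-762, at 42042 to 44737 in activated and 39565 to 48144 in resting cells, against 37741 to 38519 and 36417 to 38285 with Control-768. The summed NK cell markers were lower with 0.5 µM in activated cells, at 128 to 204 against 414 to 504 with Control-768. With 0.25 µM in activated cells they overlapped with Control-768, at 210.3 to 556. In resting cells both concentrations overlapped with it, at 116 to 191 with 0.5 µM and 146 to 250.2 with 0.25 µM, against 164 to 213. The part of these other cell types in the values of the 4 genes was not tested.

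**Figure D1:**
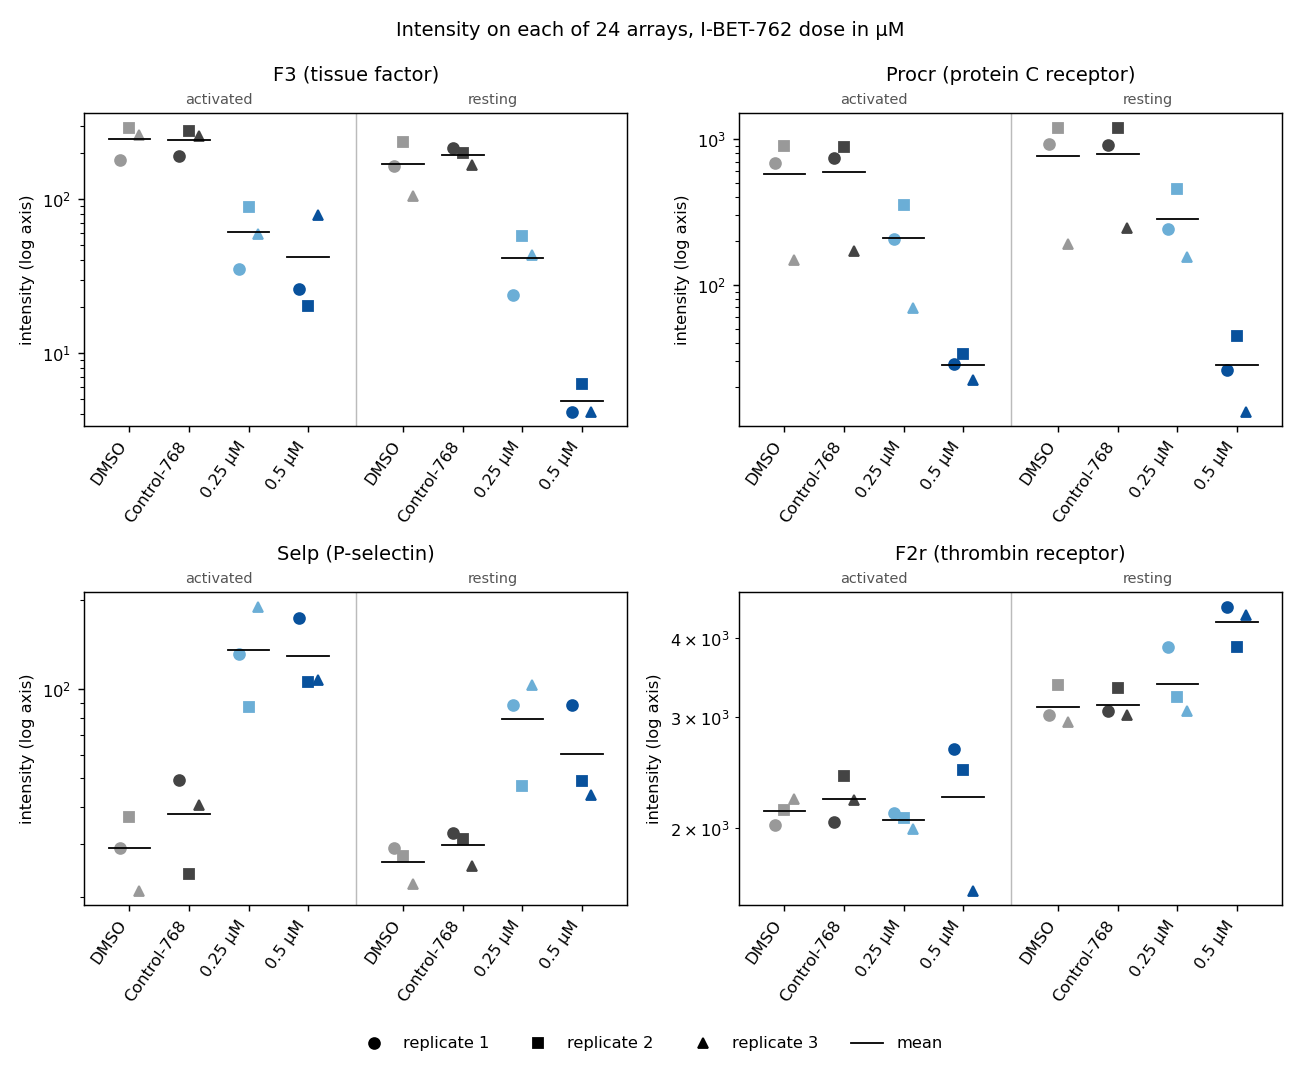
Intensity (vertical log axis, arbitrary units) of F3, Procr, Selp and F2r on each of 24 arrays, by group (horizontal axis), with activated groups left of resting groups and the compounds in the order DMSO, Control-768, 0.25 µM and 0.5 µM I-BET-762. Symbols mark replicate numbers and bars the mean of 3 arrays; the 3 resting arrays with 0.5 µM I-BET-762 lie between 4.14 and 6.27 for F3, and F2r separates activated from resting cells.

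F3, the gene for tissue factor, was measured clearly in the control cells and was low with both concentrations of I-BET-762. In resting cells the 3 arrays with 0.5 µM I-BET-762 read 4.15, 6.27 and 4.14, and those with 0.25 µM read 23.9, 57.4 and 43.5, against 214, 199.5 and 168 with Control-768 and 164, 236 and 104 with DMSO. All I-BET-762 arrays lay below all control arrays, and the 0.5 µM arrays lay below all 0.25 µM arrays. The 0.25 µM mean was 21.4% of the Control-768 mean. The 0.5 µM arrays read under the 25th percentile of their probe sets, so only a bound is given: with each array set at 16, their mean was at most 8.25% of the Control-768 mean. In bulk RNA, fewer cells with F3 transcript and less of it per cell cannot be told apart.

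In activated cells F3 read 25.9, 20.3 and 79.2 with 0.5 µM I-BET-762 and 35.3, 88.2 and 59.8 with 0.25 µM. The arrays with Control-768 read 189.9, 277 and 258, and those with DMSO 180.3, 292 and 261. Both concentrations lay below both controls on all arrays, but here the concentrations overlapped. The 0.5 µM mean was 17.3% and the 0.25 µM mean 25.3% of the Control-768 mean.

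As log2 differences from Control-768, F3 stood at -3.33 ± 0.33 (SE) with 0.5 µM and -1.90 ± 0.33 with 0.25 µM in resting cells, and at -2.28 ± 0.33 and -1.78 ± 0.33 in activated cells. Against DMSO the same differences were -3.08, -1.66, -2.29 and -1.79. Ordered by change, F3 was 6th and 9th from the lowest of the 18193 genes in resting cells with 0.5 and 0.25 µM, and 19th and 7th in activated cells. With such dim arrays the size of the resting 0.5 µM difference depends on the constant added before the log: it was -5.07 with 1 and -1.90 with 64. Across the genes tested, 7.23% had all arrays below Control-768 with 0.5 µM and 5.23% with 0.25 µM in resting cells, and 6.15% and 4.72% in activated cells. This is the background for F3, with all arrays below in all 4 comparisons, and for Procr, with all arrays below at 0.5 µM in both states.

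F3 was not detectably different between activated and resting cells under the controls. Activated minus resting cells gave 0.29 ± 0.33 log2 with Control-768 (limma adjusted p = 0.631, 95% interval -0.41 to 0.98) and 0.54 ± 0.33 with DMSO (adjusted p = 0.291, interval -0.15 to 1.23). With I-BET-762, activated minus resting cells stood at 1.33 ± 0.33 with 0.5 µM and 0.41 ± 0.33 with 0.25 µM, without a test. The resting arrays with 0.5 µM read under 16, so the size of the 0.5 µM difference depends on the added constant. Control-768 minus DMSO gave -0.01 ± 0.33 in activated and 0.25 ± 0.33 in resting cells (limma adjusted p = 1 in both).

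By group mean, F3 was highest in the 4 control groups, at 244 ± 57.6 (activated DMSO), 242 ± 45.7 (activated Control-768), 194 ± 23.7 (resting Control-768) and 168 ± 66.2 (resting DMSO; SD, n = 3 each), and each of these overlapped with its neighbour. Activated cells with 0.25 µM followed at 61.1 ± 26.5, apart from the controls, then activated cells with 0.5 µM at 41.8 ± 32.5 and resting cells with 0.25 µM at 41.6 ± 16.8, which overlapped. Resting cells with 0.5 µM came last at 4.85 ± 1.23, with no overlap.

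Procr, the protein C receptor, was low with 0.5 µM I-BET-762 in both states, and its level in the controls split by replicate number. In resting cells the arrays numbered 1, 2 and 3 read 26.0, 44.8 and 13.5 with 0.5 µM I-BET-762 and 243, 451 and 155 with 0.25 µM, against 909, 1197 and 244 with Control-768 and 928, 1189 and 190.3 with DMSO. In activated cells they read 28.8, 33.7 and 22.2 with 0.5 µM and 207, 350.4 and 69.2 with 0.25 µM, against 735, 881 and 171 with Control-768 and 687, 902 and 149 with DMSO. The 4 control arrays numbered 3 lay between 149 and 244, and the 8 numbered 1 and 2 between 687 and 1197. With 0.5 µM all arrays lay below all control arrays, while with 0.25 µM the groups overlapped because of the low controls numbered 3.

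Arrays of the same number could be compared within a state, since their deviations from the group means ran together. Within the same number, Procr with 0.5 µM was 2.86% to 5.52% of Control-768 in resting and 3.82% to 12.9% in activated cells. With 0.25 µM it was 26.7% to 63.6% in resting and 28.2% to 40.4% in activated cells. Lower values with I-BET-762 are what Procr was chosen for, and the share of all genes with all pairs lower was not computed. F3 in the same pairs was at 11.1% to 28.7% with 0.25 µM in resting cells and, with the dim 0.5 µM arrays set at 16, at most 7.47% to 9.53% with 0.5 µM. In activated cells it was at 7.32% to 30.7% with 0.5 µM and 18.6% to 31.9% with 0.25 µM.

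**Figure D2:**
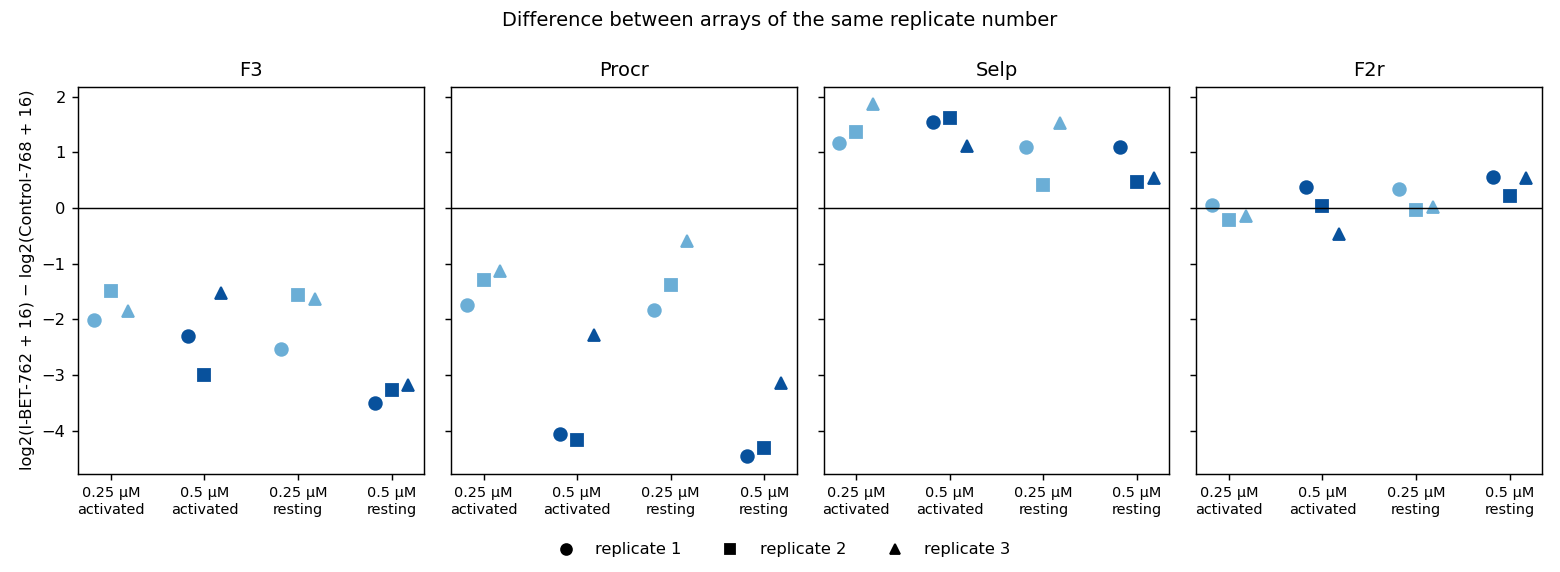
Difference in log2(intensity + 16) between I-BET-762 and Control-768 arrays of the same replicate number (vertical axis) for each gene, at 0.25 and 0.5 µM in activated and resting cells (horizontal axis). Each symbol is a pair of arrays, and each Control-768 array serves in the pairs of both concentrations. The F3 and Procr pairs lie below 0 and the Selp pairs above it, the directions by which these genes were chosen. The F2r pairs lie between -0.47 and 0.55.

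Procr differed from Control-768 by -3.97 ± 0.77 log2 with 0.5 µM and by -1.27 ± 0.77 with 0.25 µM in resting cells, and by -3.51 ± 0.77 and -1.39 ± 0.77 in activated cells. In the order of change with 0.5 µM it was 2nd from the lowest of all genes in resting cells and 3rd in activated cells, and with 0.25 µM 24th and 16th. Single arrays decided much of the 0.25 µM values. In resting cells the difference was -1.95 without the Control-768 array numbered 3 and -0.84 without that numbered 2, and in activated cells -2.10 without the Control-768 array numbered 3 and -0.81 without the I-BET-762 array numbered 3. Without the 8 arrays numbered 3 the differences were -4.39 and -1.61 in resting and -4.12 and -1.52 in activated cells. The large SE, more than that of the other 3 genes, carries the gap between replicate numbers. The only probe set of Procr has a suffix that marks possible matches to several transcripts, so its values cannot be checked against another.

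Activation left Procr without a detectable change. Activated minus resting cells gave -0.40 ± 0.77 log2 with Control-768 (limma adjusted p = 0.791, 95% interval -2.01 to 1.20) and -0.38 ± 0.77 with DMSO (adjusted p = 0.801, interval -1.99 to 1.22), and -0.52 and 0.06 with 0.25 and 0.5 µM I-BET-762. The interval is wide, and leaving out 1 array at a time moved the value between -1.08 and 0.31 with Control-768 and between -1.17 and 0.38 with DMSO. Same-numbered activated arrays read 70.1% to 80.9% of the resting ones with Control-768 and 74.0% to 78.2% with DMSO, though across the states the numbers were not shown to pair cultures. Control-768 and DMSO differed by 0.08 ± 0.77 in activated and 0.11 ± 0.77 in resting cells (limma adjusted p = 1 in both).

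The order of the Procr means was 783 ± 489 in resting Control-768, 769 ± 518 in resting DMSO, 596 ± 375 in activated Control-768 and 579 ± 388 in activated DMSO cells (SD, n = 3 each). Resting and activated cells with 0.25 µM followed at 283 ± 152 and 209 ± 141, and all these neighbours overlapped. Activated and resting cells with 0.5 µM, at 28.2 ± 5.77 and 28.1 ± 15.8, overlapped with each other and with no other group.

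Selp, the gene for P-selectin, was near the lower end of what the arrays resolve in control cells and higher with I-BET-762. On its brightest probe set, activated cells read 173, 106 and 107 with 0.5 µM I-BET-762 and 131, 87.1 and 189 with 0.25 µM, against 49.2, 23.8 and 40.8 with Control-768 and 29.1, 37.1 and 20.9 with DMSO. Resting cells read 88.3, 49.0 and 44.0 with 0.5 µM and 88.0, 47.1 and 103 with 0.25 µM, against 32.7, 31.4 and 25.4 with Control-768 and 29.2, 27.5 and 22.0 with DMSO. All I-BET-762 arrays lay above all control arrays of the same state, and the concentrations overlapped in both states. The share of genes with all arrays above Control-768 was 5.83% with 0.5 µM and 5.75% with 0.25 µM in activated cells, and 7.12% and 4.88% in resting cells.

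Selp differed from Control-768 by 1.42 ± 0.27 log2 with 0.5 µM and 1.47 ± 0.27 with 0.25 µM in activated cells, and by 0.70 ± 0.27 and 1.01 ± 0.27 in resting cells. Without the I-BET-762 array numbered 1 the resting 0.5 µM difference was 0.45. Selp stood 24th and 5th from the highest of all genes in activated cells, and 221st and 21st in resting cells. The 0.5 µM minus 0.25 µM difference was -0.04 ± 0.27 in activated (95% interval -0.62 to 0.53) and -0.32 ± 0.27 in resting cells (interval -0.89 to 0.26). For F3 the same difference was -0.50 ± 0.33 in activated and -1.42 ± 0.33 in resting cells, and for Procr -2.12 ± 0.77 and -2.70 ± 0.77. With a constant of 64 in place of 16 the activated differences shrank to 0.91 and 0.95.

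The other Selp probe sets moved the same way. One read 59.6 ± 27.3 with 0.5 µM and 66.6 ± 25.4 with 0.25 µM in activated cells, against 15.3 ± 6.26 with Control-768 (SD, n = 3 each), and differed by 1.23 and 1.37 log2. The last read 56.2 ± 17.9 and 64.2 ± 14.8 against 20.3 ± 4.25, or 0.97 and 1.13 log2. In resting cells their differences were 0.68 and 0.91 for the first of these, with overlap at both concentrations, and 0.71 and 0.74 for the other, with overlap at 0.25 µM. The 3 probe sets correlated across the 24 arrays with Pearson's r of 0.923 to 0.965, but 2 of them fell under 16 on 9 and 4 arrays.

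**Figure D3:**
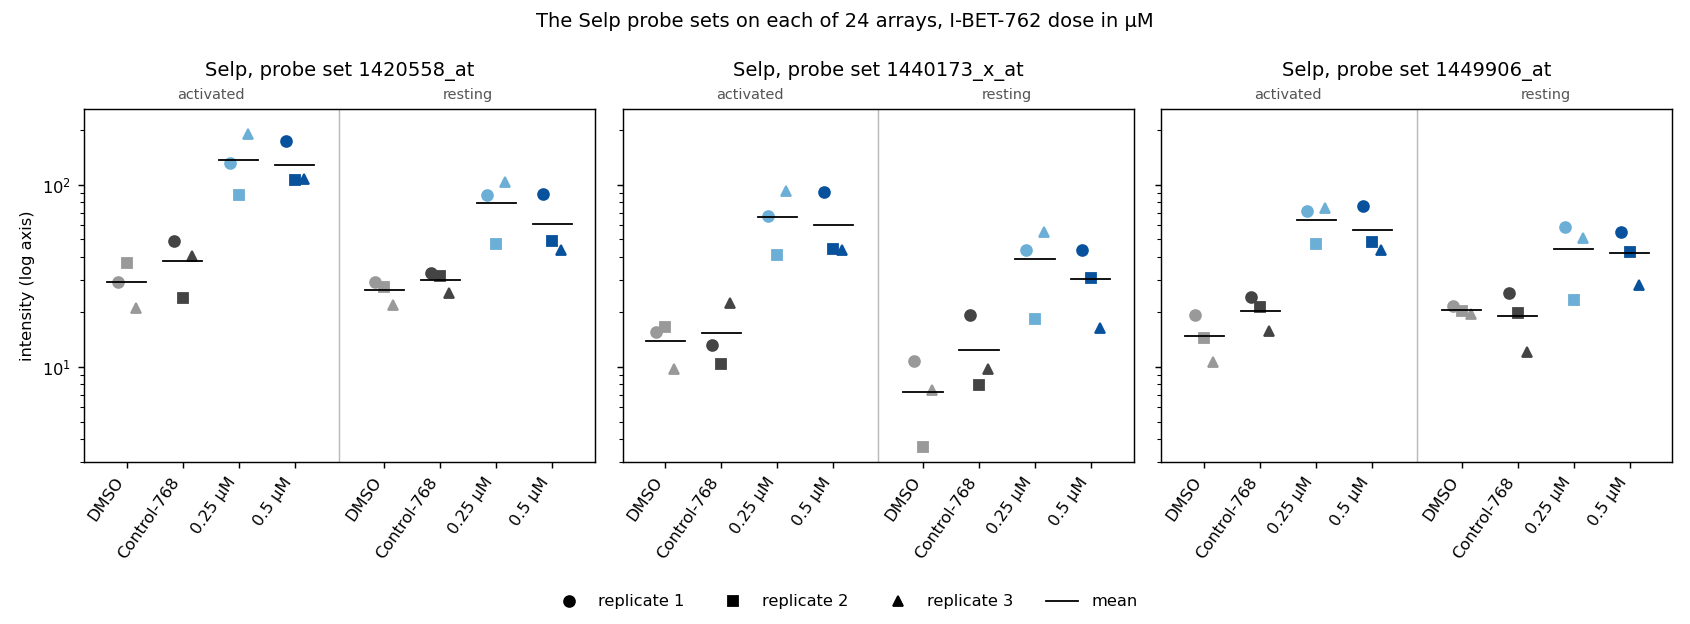
Intensity (vertical log axis, arbitrary units) of the 3 Selp probe sets on each of 24 arrays, by group (horizontal axis: activated left of resting, compounds in the order DMSO, Control-768, 0.25 µM and 0.5 µM I-BET-762). Symbols mark replicate numbers and bars the mean of 3 arrays; in activated cells the I-BET-762 arrays lie above the Control-768 arrays on all 3 probe sets.

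Activation did not detectably move Selp under the controls, at 0.21 ± 0.27 log2 with Control-768 (limma adjusted p = 0.681) and 0.08 ± 0.27 with DMSO (adjusted p = 0.891). With I-BET-762, activated minus resting cells stood at 0.93 ± 0.27 with 0.5 µM and 0.66 ± 0.27 with 0.25 µM. Control-768 minus DMSO gave 0.25 ± 0.27 in activated and 0.12 ± 0.27 in resting cells (limma adjusted p = 1 in both). The order of the means was 136 ± 51.4 (activated, 0.25 µM), 129 ± 38.6 (activated, 0.5 µM), 79.5 ± 29.0 (resting, 0.25 µM) and 60.4 ± 24.3 (resting, 0.5 µM; SD, n = 3 each). In this order only the activated cells with 0.5 µM, whose lowest array read 105.5, were clear of the next group, whose highest read 103.2. The control groups followed at 37.9 ± 12.9 (activated Control-768), 29.8 ± 3.9 (resting Control-768), 29.0 ± 8.09 (activated DMSO) and 26.2 ± 3.79 (resting DMSO), each overlapping with the group before it.

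P-selectin is a gene of platelets and endothelium, so their markers were read on the same arrays. The platelet sum over 12 genes was 513 to 582 with 0.5 µM I-BET-762 and 579 to 644 with 0.25 µM in activated cells, against 542 to 626 with Control-768. In resting cells it was 746 to 2558 with 0.5 µM and 801 to 1020.2 with 0.25 µM, against 798 to 1119. The value of 2558 came with 1900.3 for Itgb3, an integrin chain, on the array numbered 3, where Selp read 44.0. The endothelial sum over 12 genes was 591 to 827 and 783 to 889 in activated cells with 0.5 and 0.25 µM, against 825 to 907 with Control-768. In resting cells it was 846 to 890.4 and 808 to 878, against 873 to 1009. Most of this sum came from Egfl7 and Pecam1, with group means of 382 to 568 and 86.9 to 244, while the other 10 markers stayed under 64 on all arrays. The part of platelets or endothelial cells in the Selp values was not tested. The genome neighbours of Selp, Sele (E-selectin) and F5 (coagulation factor V), stayed under 16 on all 24 arrays.

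F2r, the thrombin receptor PAR1, was lower in activated than in resting cells under both controls, and in resting cells it was higher with 0.5 µM I-BET-762. Activated cells read 2039.7, 2415 and 2209 with Control-768 and 2019, 2135 and 2222 with DMSO, and resting cells 3064, 3326 and 3015 with Control-768 and 3018, 3368 and 2947 with DMSO. All activated arrays lay below all resting arrays. F2r fell on activation by 0.50 ± 0.15 on the log2 scale with Control-768 (limma adjusted p = 0.0206, 95% interval -0.80 to -0.19) and by 0.55 ± 0.15 with DMSO (adjusted p = 0.0116). It was the only one of the 4 genes to pass the test in either comparison, where 20.0% and 20.8% of all genes passed and 19.8% and 20.2% had all activated arrays below all resting ones.

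The other F2r probe set fell as well, by 0.52 ± 0.14 with Control-768 and 0.71 ± 0.14 with DMSO, with limma adjusted p of 0.019 and 0.00209 over all probe sets. The pair correlated with Pearson's r of 0.985 over the 24 arrays, and both carry the suffix that marks possible matches to several transcripts. The call on the brighter probe set was lost when 1 array was left out: limma adjusted p became 0.0798 without the activated Control-768 array numbered 1, 0.0602 without that numbered 3, 0.0734 without the resting Control-768 array numbered 2 and, in DMSO, 0.0508 without the resting array numbered 2. The change stayed between -0.58 and -0.44 in all these cases. Control-768 minus DMSO gave 0.06 ± 0.15 in activated and 0.01 ± 0.15 in resting cells (limma adjusted p = 1 in both).

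With I-BET-762, F2r read 4486, 3874 and 4346 at 0.5 µM and 3869.6, 3226 and 3064 at 0.25 µM in resting cells. The 0.5 µM arrays lay above all control arrays, with a log2 difference from Control-768 of 0.43 ± 0.15, and the 0.25 µM arrays overlapped with them, at 0.10 ± 0.15. In resting cells 7.12% of all genes had all 0.5 µM arrays above Control-768, and F2r was 813th from the highest of 18193 by change. The other F2r probe set stood at 0.47 and 0.17. Activated cells read 2665, 2464 and 1587 at 0.5 µM and 2107, 2074 and 1987 at 0.25 µM, with differences of -0.02 ± 0.15 and -0.11 ± 0.15 and overlap in both. The array numbered 3 with 0.5 µM decided the value at that concentration, which was 0.21 without it. Activated minus resting cells stood at -0.95 ± 0.15 with 0.5 µM and -0.71 ± 0.15 with 0.25 µM.

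The F2r means were ordered by state. Resting cells held 4235 ± 321 with 0.5 µM I-BET-762, 3387 ± 426 with 0.25 µM, 3135 ± 167 with Control-768 and 3111 ± 225 with DMSO (SD, n = 3 each), and only the 0.5 µM group was clear of its neighbour, by a narrow margin. Activated cells held 2238 ± 573 with 0.5 µM, 2221 ± 188 with Control-768, 2125 ± 102 with DMSO and 2056 ± 61.7 with 0.25 µM, all overlapping and all below the resting groups.

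The other genes of these pathways were read as 5 lists with 74 measured members. On activation 5 rose and 9 fell with Control-768 (18.9% called) and 5 rose and 8 fell with DMSO (17.6%), against 20.0% and 20.8% of all genes. Without the activated Control-768 array numbered 3 the 14 calls with Control-768 became 7. With 0.5 µM I-BET-762 in resting cells 2 rose and 0 fell (2.70%, against 1.41% of all genes). In activated cells with 0.5 µM (0.726% of all genes called) and with 0.25 µM in activated (0.0715%) and resting cells (0.0660%) 0 of 74 passed, as with Control-768 against DMSO in either state, where 0 of all genes passed limma's test. At an unadjusted p under 0.05, limma's test held 9 of the 74 in activated and 11 in resting cells with 0.5 µM (7.94% and 10.7% of all genes), and 1 and 6 with 0.25 µM (4.01% and 4.17%). With Control-768 against DMSO it held 1 in activated and 0 in resting cells (1.65% and 2.35%). With replicate number as a block within each state, the counts with I-BET-762 were 6 in resting and 4 in activated cells at 0.5 µM, and 1 in each state at 0.25 µM. In the same fits 5.52% and 3.35% of all genes were called at 0.5 µM in resting and activated cells, and 0.533% and 0.390% at 0.25 µM.

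Of 19 coagulation factor genes, most of them made by the liver, 0 rose and 2 fell on activation with either control, and 0 passed with I-BET-762. Fgl2, which encodes a membrane prothrombinase, averaged 81.5 ± 35.4 in activated and 466 ± 85.4 in resting cells with Control-768 (SD, n = 3 each). It fell by 2.37 ± 0.56 on the log2 scale (limma adjusted p = 0.00526), and by 2.60 ± 0.56 with DMSO (adjusted p = 0.00257). Vkorc1, the enzyme that recycles vitamin K, fell by 0.61 ± 0.18 and 0.56 ± 0.18 (adjusted p = 0.0171 and 0.0283), a call lost in 3 of the 6 and 4 of the 6 fits without 1 array. The median change of the list was 0.00 with Control-768 and -0.04 with DMSO, against -0.03 over all genes.

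Of 15 genes of the anticoagulant and protein C pathway, 1 rose and 0 fell on activation with either control, and 0 passed with I-BET-762. Serpinc1, which encodes antithrombin, averaged 97.1 ± 19.2 in activated and 36.7 ± 14.9 in resting cells with Control-768 (SD, n = 3 each) and rose by 1.12 ± 0.29 log2 (limma adjusted p = 0.00825), and by 1.21 ± 0.29 with DMSO (adjusted p = 0.00495). Anxa5, a protein that covers the membrane lipids on which coagulation proceeds, gave -0.30 ± 0.09 with 0.5 µM I-BET-762 in resting cells (limma adjusted p = 0.111, or 0.0348 with the replicate block). Limma adjusted p for Anxa5 was 0.212 without the arrays numbered 3. Thbd, the gene for thrombomodulin, stayed between group means of 25.9 and 43.6, and Proc, the gene for protein C, between 1.25 and 14.9.

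Of 9 measured plasminogen activation genes, 0 passed in any of the comparisons without a block. Plaur, the urokinase receptor, came closest on activation, at 0.53 ± 0.19 log2 with DMSO (limma adjusted p = 0.0606) and 0.35 ± 0.19 with Control-768 (adjusted p = 0.236). Plgrkt, a plasminogen receptor, gave 0.48 ± 0.15 with 0.5 µM I-BET-762 in activated cells (limma adjusted p = 0.221, or 0.0288 with the replicate block). Limma adjusted p for Plgrkt was 0.457 without the arrays numbered 3.

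Of 11 measured protease-activated receptors and signal partners, 1 rose and 4 fell on activation with Control-768, and 1 rose and 3 fell with DMSO. Gnaq, the G protein subunit through which PAR1 activates phospholipase C, averaged 1983 ± 346 in activated and 721 ± 193 in resting cells with Control-768 (SD, n = 3 each). It rose by 1.46 ± 0.22 log2 (limma adjusted p = 0.000151), and by 1.40 ± 0.22 with DMSO (adjusted p = 0.000223). Arrb1, an arrestin that uncouples such receptors, fell by 1.68 ± 0.44 and 1.73 ± 0.44 on the log2 scale (adjusted p = 0.0102 and 0.00839), with p of 0.0517 to 0.0642 in 3 of 6 fits that left out 1 array with Control-768. Arhgef1 fell by 0.62 and 0.63 (adjusted p = 0.014 and 0.0121), but its direction turned to 0.55 and 0.35 where probe sets of several transcripts were left out. With 0.5 µM I-BET-762 in resting cells Gnaq gave 0.88 ± 0.22 (limma adjusted p = 0.0538, or 0.000779 with the replicate block), with 1354, 1189 and 1379 on its arrays against 900.2, 746 and 517 with Control-768. Limma adjusted p for this difference was 0.0914 without the arrays numbered 3. Gna12, another G protein subunit gene of the list, gave 0.46 ± 0.20 with 0.5 µM in activated cells (limma adjusted p = 0.573, or 0.0244 with the replicate block). For Gna12 it was 0.0353 without the arrays numbered 3. The related receptor genes F2rl2 and F2rl3 had group means of 74.5 to 97.6 and 84.7 to 161.

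Of 20 measured genes for selectins, their ligands and ligand synthesis, 3 rose and 3 fell on activation with either control. Cd44, an adhesion receptor that can carry selectin ligands, rose by 1.28 ± 0.22 log2 with Control-768 (limma adjusted p = 0.000371) and 1.29 ± 0.22 with DMSO (adjusted p = 0.00033). Selplg, the gene for the P-selectin ligand PSGL-1, averaged 2472 ± 214 in activated and 3733 ± 364 in resting cells with Control-768 (SD, n = 3 each). It fell by 0.59 ± 0.14 and by 0.55 ± 0.14 with DMSO (adjusted p = 0.00604 and 0.00945), where p was 0.059 without the resting DMSO array numbered 1.

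With I-BET-762 the ligand synthesis list held the 2 genes that passed. Chst2, a sulfotransferase that adds sulfate to the sugars of L-selectin ligands, read 622, 418 and 378 in resting cells with 0.5 µM I-BET-762, against 123, 69.5 and 84.9 with Control-768, a rise of 2.17 ± 0.47 log2 (limma adjusted p = 0.0182). Gcnt1, the branching enzyme of the core on which PSGL-1 carries its ligand sugars, read 80.2, 65.2 and 122 against 25.6, 30.1 and 10.1, a rise of 1.48 ± 0.28 (adjusted p = 0.0064). All arrays with 0.5 µM lay above all Control-768 arrays for both genes. The calls rested on few arrays: for Chst2, limma adjusted p was 0.0918, 0.102 and 0.0586 without the I-BET-762 array numbered 1 and the Control-768 arrays numbered 2 and 3, and for Gcnt1 0.0514 without the I-BET-762 array numbered 3, 0.0746 without all arrays numbered 3 and 0.15 in a fit of the compared groups alone. In activated cells Chst2 read 474, 614 and 1179 with 0.5 µM against 123, 139 and 445 (1.74 ± 0.47, limma adjusted p = 0.11, or 1.08e-05 with the replicate block). With 0.25 µM it gave 0.85 and 1.04 in activated and resting cells, with adjusted p of 0.027 and 0.00649 in the blocked fit and 1 without the block. Without the arrays numbered 3, limma adjusted p for these 0.25 µM differences was 0.382 and 0.236. For Chst2 with 0.5 µM in activated cells it was 0.0108. Gcnt1 in activated cells read 168, 101 and 87.1 with 0.5 µM against 45.6, 59.7 and 86.4 with Control-768 (0.74 ± 0.28, limma adjusted p = 0.404). On activation Gcnt1 rose by 1.08 ± 0.28 with Control-768 and 1.13 ± 0.28 with DMSO (limma adjusted p = 0.00839 and 0.00632). With Control-768 that p was 0.0548 without the resting and 0.0584 without the activated array numbered 3. The median change of the list was 0.18 with 0.5 µM in resting cells and 0.12 in activated cells, against 0.00 over all genes in both.

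Fut4, a fucosyltransferase of the same list singled out after its values were seen, ran the other way. It read 211, 267 and 23.7 in resting cells with 0.5 µM I-BET-762, against 821, 847 and 218 with Control-768, and 249, 224 and 114 in activated cells, against 539, 587 and 419. The log2 differences were -2.02 ± 0.65 and -1.38 ± 0.65, with limma adjusted p of 0.173 and 0.616 without a block, and 1.15e-05 and 0.000701 with the replicate block. For Fut4 without the arrays numbered 3, limma adjusted p was 0.000433 and 0.00564. As for Procr, its resting arrays numbered 3 were lower than those numbered 1 and 2 in every resting group. Tpst2, which sulfates the tyrosines of PSGL-1, gave 0.47 ± 0.17 with 0.5 µM in resting cells (limma adjusted p = 0.272, or 0.0132 with the block). Limma adjusted p for Tpst2 was 0.28 without the arrays numbered 3.

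**Figure D4:**
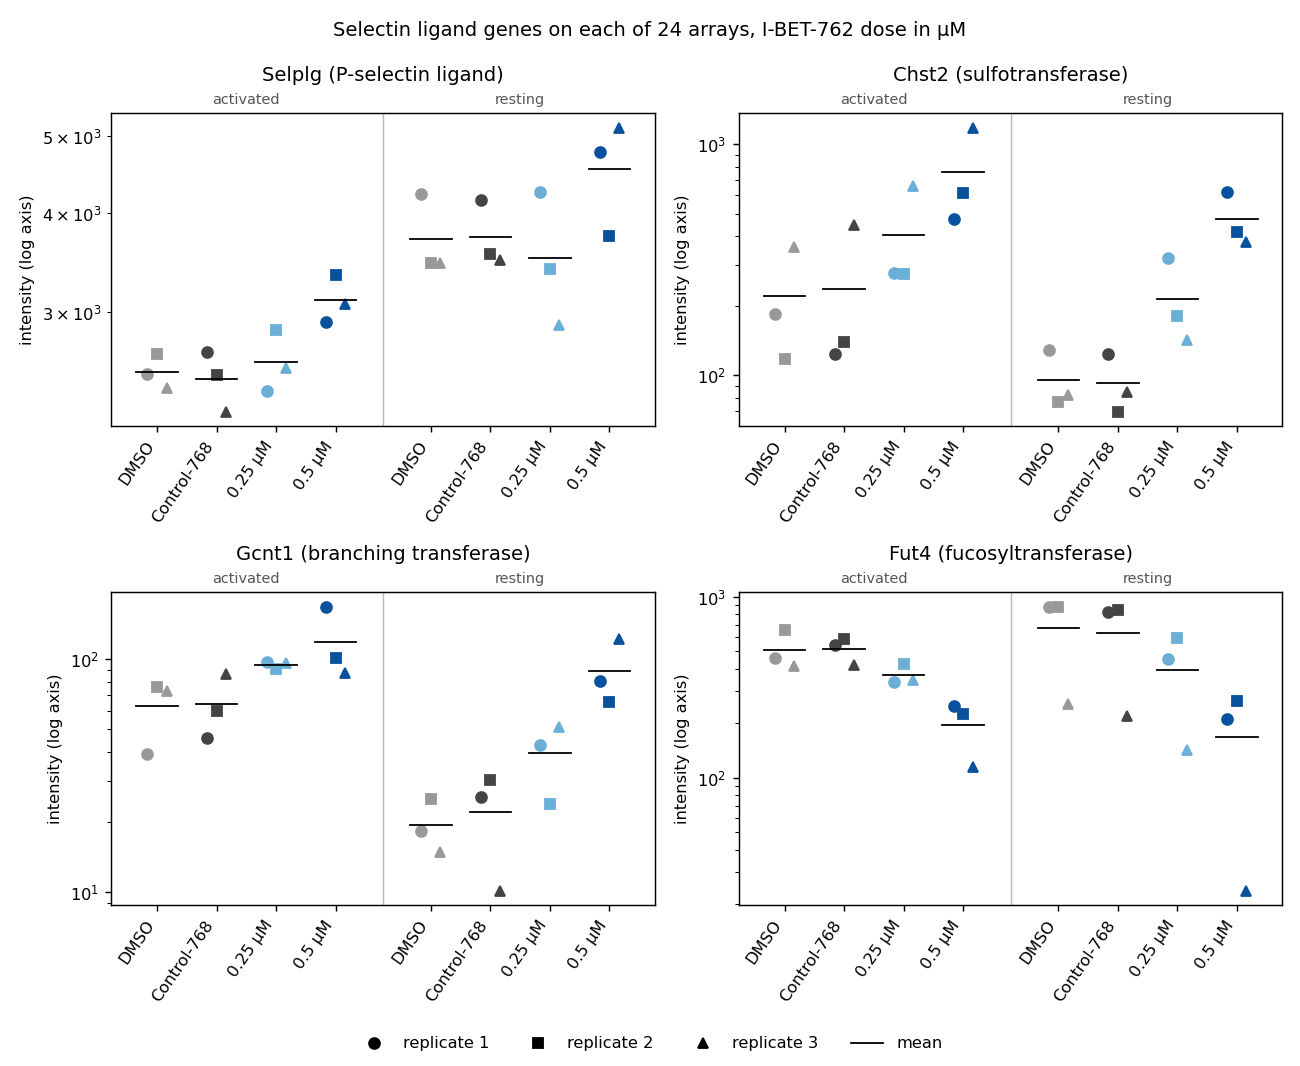
Intensity (vertical log axis, arbitrary units) of Selplg, Chst2, Gcnt1 and Fut4 on each of 24 arrays, by group (horizontal axis: activated left of resting, compounds in the order DMSO, Control-768, 0.25 µM and 0.5 µM I-BET-762). Symbols mark replicate numbers and bars the mean of 3 arrays; in resting cells Chst2 and Gcnt1 lie higher and Fut4 lower with 0.5 µM I-BET-762 within each replicate number.

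The 3 nearest measured genes on each side of each member, 24 in all, gave no call with I-BET-762 at either concentration without a block, and their log2 changes with 0.5 µM lay between -0.79 and 0.28 in activated and -0.92 and 0.38 in resting cells. Edem2, the neighbour of Procr, gave -0.91 ± 0.35 in resting and -0.79 ± 0.35 in activated cells with 0.5 µM (limma adjusted p = 0.312 and 0.573, or 6.14e-05 and 0.000408 with the replicate block). It read 559, 481 and 322 in resting cells with 0.5 µM against 1014, 926 and 642 with Control-768. Abcd3, the neighbour of F3, gave -0.44 ± 0.30 and -0.55 ± 0.30 (adjusted p = 0.682 and 0.724, or 0.0438 and 0.0162 with the block). With the block 4 of the 24 were called in resting and 2 in activated cells with 0.5 µM, against 5.52% and 3.35% of all genes. The others in resting cells were BC029722, beyond Procr (-0.38, adjusted p = 0.262, or 0.00848 with the block), and Zbed3, near F2r (-0.92, adjusted p = 0.0779, or 0.00759). Without the arrays numbered 3, limma adjusted p in resting cells was 0.005 for Edem2, 0.00265 for Abcd3, 0.0272 for BC029722 and 0.0699 for Zbed3. On activation, 2 neighbours rose and 6 fell with Control-768, and 3 rose and 6 fell with DMSO, where 20.0% and 20.8% of all genes were called. Iqgap2, a scaffold protein gene next to F2r, fell by 0.97 ± 0.15 on the log2 scale with Control-768 (limma adjusted p = 0.000151) and by 1.04 ± 0.15 with DMSO (adjusted p = 8.63e-05), while F2rl2, the PAR3 gene beyond it, gave -0.03 ± 0.20 and -0.28 ± 0.20 (adjusted p = 0.946 and 0.366). Eif6, beyond Procr, rose by 0.91 and 0.92 (adjusted p = 7.55e-06 and 6.33e-06), and Zbed3, on the other side of F2r, fell by 0.93 and 0.95 (adjusted p = 0.011 and 0.00972). Both rested on probe sets of several transcripts: without such probe sets Eif6 gave 0.17 and 0.05 (adjusted p = 0.665 and 0.915) and Zbed3 turned to 0.30 and 0.03.

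The genes whose pattern was most like each member were found by Pearson's r over the 24 arrays, which share the 8 groups and their replicate numbers. For F3 these were Itpripl2 (r = 0.928), Mycn, a MYC family transcription factor (0.913), Cysltr1, a leukotriene receptor (0.91), and Piwil2, an Argonaute family protein (0.893). For Procr they were Basp1 (0.984), Ccdc40 (0.977), Serpinf1 (0.963) and Fhit (0.959). For Selp they were Sema6d, a semaphorin (0.894), Vcan, the proteoglycan versican (0.808), Il21r, the IL-21 receptor (0.799), and Gng12, a G protein subunit (0.788). For F2r they were Ripor2 (0.955), Wdr44 (0.948), Serinc3 (0.946) and Xdh, the enzyme xanthine dehydrogenase (0.942). The r values describe these arrays, whose groups differ in both state and compound.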

How the data were processed

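The deposited table holds 1 linear intensity per probe set and array, as the authors deposited it, and the sources used here do not give their summarisation and normalisation. Per the labels' protocols, RNA was amplified for 2 rounds and labelled with biotin. Values were taken as log2(intensity + 16). The probe-to-gene table gave 34945 of 45101 probe sets a single symbol, 932 several and 9160 none, and 64 were controls. For each of 18193 genes the probe set with the highest mean log2 value was used. A single limma fit (limma 3.58.1, R 4.3.3) of 8 group means over 24 arrays, with 16 residual degrees of freedom, gave each log2 change and SE. Adjustment for multiple tests (Benjamini-Hochberg) ran over all 18193 genes, with a threshold of 0.05 for a call. The median 95% interval reached 0.39 log2 to each side, a precision limited by the 3 arrays in each group. The fit was tested on simulated data.

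The 4 genes, the pathway lists and the marker lists were chosen with earlier results of these data known. Genes to name from each list were up to 4 with the smallest adjusted p under 0.05 in a comparison or, where none passed, the 2 with the smallest p. Not all of these are described: St3gal3, Arrb2 and S1pr1, which passed on activation, are among those left out. Genes like a member were the 4 with the highest Pearson's r among those with a group mean of at least 64 and no placeholder symbol. Fut4 and Tpst2 were singled out after their values were seen. Arrays of the same number within a state had deviations from their group means that correlated at 0.15 to 0.70 in all 36 pairs, so the numbers were taken to pair arrays within a state, a pairing that comes from the data and not the labels. Across states the correlations were -0.05 to 0.19. The series text calls the replicates biological but does not say how many mice or cultures they came from, so p-values measure the spread between these samples. The alternatives were other added constants, quantile normalisation, other choices of probe sets, a limit on dim genes, fits to the compared groups alone, a replicate block, and fits without single arrays. Leaving out all 8 arrays numbered 3 was added after the data were seen.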

Additional observations from a re-analysis of the deposited data

How the results depend on the processing

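The changes of F3, Procr and Selp with I-BET-762 against Control-768 kept their direction under all alternatives that gave a value. These genes were chosen for that direction on the same arrays, so this is a description and no test of it. The sizes of the changes moved with the constant added before the log. With a constant of 64, F3 stood at -1.56 and -1.30 in activated and -1.90 and -1.30 in resting cells with 0.5 and 0.25 µM, Selp at 0.91 and 0.95 in activated and 0.59 in resting cells with 0.25 µM, and Procr at -2.99 in resting cells with 0.5 µM. With a constant of 1, F3 stood at -2.74 in activated and -5.07 in resting cells with 0.5 µM. Leaving out single arrays, F3 ran from -2.71 to -2.01 and F2r from -0.16 to 0.21 in activated cells with 0.5 µM, F2r reaching 0.21 without the arrays numbered 3 as well. On activation the ranges without single arrays were -1.08 to 0.31 for Procr and -0.56 to -0.44 for F2r with Control-768, and -1.17 to 0.38 for Procr, -0.05 to 0.22 for Selp and -0.58 to -0.49 for F2r with DMSO. For Control-768 against DMSO they were -0.20 to 0.15 for F3, -0.68 to 0.79 for Procr and -0.00 to 0.12 for F2r in activated cells, and -0.03 to 0.51, -0.69 to 0.78 and -0.03 to 0.07 in resting cells. In this comparison Procr was -0.01 in resting cells without the arrays numbered 3, and F3 0.03 in activated cells after quantile normalisation.

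Counts of called genes with I-BET-762 were lower in fits of the compared groups alone and higher with the replicate block. With 0.5 µM the 132 genes called in activated cells became 28 in a fit of the compared groups alone, 338 with a replicate block over both states, 610 with the replicate block within each state and 498 without the arrays numbered 3, and 79 to 131 without single arrays. The 256 in resting cells became 29, 566, 1005 and 737, and 137 to 336. With 0.25 µM the 13 in activated cells became 8 with a constant of 1, 2 in the compared groups alone, 39 and 71 with the blocks and 57 without the arrays numbered 3, and 0 to 10 without single arrays. The 12 in resting cells became 19 with a constant of 64, 0 by limma in the compared groups alone (927 at an unadjusted p under 0.05), 40 and 97 with the blocks and 80 without the arrays numbered 3, and 3 to 12. On activation 3640 genes were called with Control-768 and 3782 with DMSO, or 6674 and 7124 of all probe sets, and 2360 to 3026 and 2563 to 3238 without single arrays. Control-768 against DMSO gave 0 calls by limma (300 in activated and 428 in resting cells at an unadjusted p under 0.05), 1 in activated cells after quantile normalisation, without probe sets of several transcripts or with the block over both states, and 0 to 1 in both states without single arrays. Without probe sets of several transcripts Procr and F2r have no value, and Arhgef1 stood at 0.55 and 0.35 and Zbed3 at 0.30 and 0.03 on activation with Control-768 and DMSO, the reverse of their other sign. The F2r calls on activation stayed with the replicate block over both states. The numbers were not shown to pair cultures across states, so this says little about those calls. The block within each state was not fitted to activation. The causes were not tested.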
